A study of Homo sapiens with 2 samples.

Results

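The BCL2 family decides whether a cell keeps its mitochondria intact or dies by apoptosis. The antiapoptotic proteins BCL2, BCL-XL and MCL-1 hold back the pore-forming effectors BAX and BAK, and the BH3-only proteins BIM, PUMA, NOXA, BID and BAD bind the guardians or the effectors and start the process. Prostate cancer cells have been studied for their reliance on BCL-XL and MCL-1, and drugs that mimic a BH3 segment act on this family.

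Here 10 genes of this family were read from a table of 20802 amplicons: BCL2, BCL2L1 (BCL-XL), MCL1, BAX, BAK1 (BAK), BCL2L11 (BIM), BBC3 (PUMA), PMAIP1 (NOXA), BID and BAD. They were chosen by their gene symbols, and all 10 were found, each with 1 amplicon. The data come from LNCaP, a human prostate cancer line grown from a lymph node metastasis, and MDA PCa 2b, a human prostate cancer line grown from a bone metastasis. Both lines are labelled WT, no drug or other agent is named for either, and each line has 1 library made from 10 ng of total RNA. The study set out to compare expression of cancer genes between prostate cancer lines in a study of health disparities. The amplicon assay copies 1 short stretch of each transcript with a primer pair, so a value does not scale with transcript length.

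The counts summed to 10778061 in LNCaP against 8558660 in MDA PCa 2b. Levels are in CPM, which sets counts against a library size corrected with the TMM method of edgeR, and 1 count was worth 0.0923 CPM in LNCaP against 0.117 CPM in MDA PCa 2b. With 1 library per line there is no spread between cultures and no p-value. Except where an assumed spread is named, every interval is an exact 95% interval for counting error only. It treats each read as a separate molecule. Reads copied by PCR and carrying no molecular identifier cannot be counted that way, so the intervals may be too narrow. All 8 luminal prostate markers looked for, KLK3, KLK2, FOLH1, HOXB13, KRT8, KRT18, TMPRSS2 and AMACR, had at least 10 counts in both libraries and summed to 3418 CPM in LNCaP against 4151 CPM in MDA PCa 2b. The leukocyte markers PTPRC and CD3E, the fibroblast marker COL1A2, the endothelial marker CDH5 and the basal marker TP63 had 0 counts in both. Other markers of these cell types were read: CD68 had 116 counts in LNCaP against 251 in MDA PCa 2b, COL1A1 132 against 24, PECAM1 18 against 36 and VWF 20 against 1. Summed over each list, the 4 leukocyte markers reached 10.98 CPM in LNCaP against 29.5 CPM in MDA PCa 2b, the 4 fibroblast markers 12.6 against 3.64 CPM and the 3 endothelial markers 3.51 against 4.35 CPM. Of the 3 basal markers, KRT5 and KRT14 were detected, and the sum was 786 CPM in MDA PCa 2b and 16.7 CPM in LNCaP, nearly all of it KRT14. Whether these marker differences bear on the family was not tested.

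The 10 genes encode proteins that share the BH3 segment, the helix by which family members grip each other. The genes lie on several chromosomes, and the proteins differ in length. The stretches of coding sequence below are shown because they are the feature that unites the members. Each is 24 bases long, 5′ to 3′, from the principal transcript of GENCODE release 29, with the codon for the first leucine and the codons for the small residue and the aspartate that follows it in capitals.
BCL2: CTCcgccaggccGGCGACgacttc
BCL2L1: CTGagggaggcaGGCGACgagttt
MCL1: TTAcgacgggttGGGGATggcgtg
BAX: CTCaagcgcatcGGGGACgaactg
BAK1: CTCgccatcatcGGGGACgacatc
BCL2L11: TTGcggcgtattGGAGACgagttt
BBC3: CTGcggcggatgGCGGACgacctc
PMAIP1: CTCaggagatttGGAGACaaactg
BID: CTCgcccaggtcGGGGACagcatg
BAD: CTCcggaggatgAGTGACgagttt
The pattern of leucine, 3 residues of any kind, a glycine, alanine or serine, aspartate, any residue and a hydrophobic residue was found exactly 1 time in each of the 10 proteins. It was written down from knowledge of these proteins, so its presence in them is a description. It also occurs in 12.8% of the 19530 human proteins searched. It begins at residue 29 of the 54 in NOXA, the shortest member, and at residue 213 of the 350 in MCL-1, the longest. The small residue is alanine in PUMA, serine in BAD and glycine in the other 8.

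Among the antiapoptotic genes, the libraries differed in which of BCL2L1 and MCL1 was read more. MCL1, which encodes a short-lived guardian that binds NOXA and BIM tightly, had 1206 counts in LNCaP against 1678 in MDA PCa 2b. That is 111 CPM in LNCaP (interval 105 to 118) against 197 CPM in MDA PCa 2b (188 to 207), a 1.77-fold excess in MDA PCa 2b (1.64 to 1.91). BCL2L1 went the other way, with 1604 counts in LNCaP against 934 in MDA PCa 2b. Its level was 148 CPM in LNCaP (141 to 155) against 110 CPM in MDA PCa 2b (103 to 117), a 1.35-fold excess in LNCaP (1.24 to 1.46). For counting error alone, the intervals of both genes lie clear of no difference and within 2-fold. BCL2, the founding member, was hardly read in either line, with 14 counts in LNCaP against 13 in MDA PCa 2b. These are 1.29 CPM (0.706 to 2.17) and 1.53 CPM (0.813 to 2.61), and only 7.34% and 7.92% of measured genes had a lower level of reads. Amplicon efficiency can be unequal, so few reads may not mean few transcripts. The BCL2 ratio of 1.18 (0.512 to 2.71) leaves a difference of 2-fold in MDA PCa 2b within its interval, so no difference was detectable at this depth. BCL2 is the member that the deposited table flags as a Cancer Gene Census gene.

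BAX carried the widest difference of the 10 members. The gene, which encodes a cytosolic effector that moves to mitochondria and forms pores, had 524 counts in LNCaP against 1233 in MDA PCa 2b. Its level was 48.3 CPM in LNCaP (44.3 to 52.7) against 145 CPM in MDA PCa 2b (137 to 153), a 3.0-fold excess in MDA PCa 2b (2.70 to 3.33). The interval stays above 2-fold, and 9.67% of all measured genes had a higher ratio than BAX. BAK1, the effector that sits in the mitochondrial membrane, did not share this difference. It had 128 counts in LNCaP against 85 in MDA PCa 2b, or 11.8 CPM (9.85 to 14.0) and 9.99 CPM (7.98 to 12.3). The BAK1 ratio of MDA PCa 2b over LNCaP was 0.846 (0.635 to 1.12), an interval that includes no difference. The BAX and BAK1 intervals do not overlap.

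**Figure D1:**
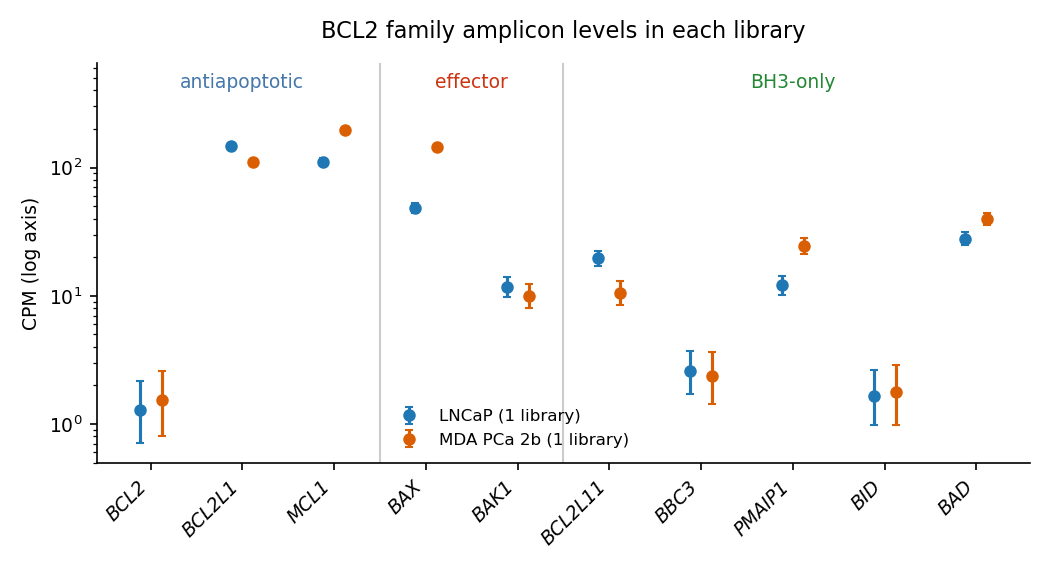
Level of each member in CPM on a log axis, with 1 point per library (LNCaP blue, MDA PCa 2b orange) and exact 95% counting intervals as bars, grouped by role. BAX stands at 48.3 CPM in LNCaP against 145 CPM in MDA PCa 2b, while BCL2, BID and BBC3 lie under 3 CPM in both libraries.

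Of the 5 BH3-only genes, 0 had an interval wholly beyond 2-fold, where 24.1% of all measured genes did in either direction. The intervals of PMAIP1 and BAD lay above no difference, that of BCL2L11 below it, and those of BBC3 and BID included it. PMAIP1, which encodes NOXA, a selective partner of MCL-1, had 131 counts in LNCaP against 208 in MDA PCa 2b. Its level was 12.1 CPM (10.1 to 14.3) in LNCaP and 24.4 CPM (21.2 to 28) in MDA PCa 2b, a 2.02-fold excess in MDA PCa 2b (1.62 to 2.54). The lower end of that interval lies under 2-fold, so PMAIP1 was not called. BAD, whose product binds BCL2 and BCL-XL and is inactivated by phosphorylation, had 302 counts in LNCaP against 340 in MDA PCa 2b. It stood at 27.9 CPM (24.8 to 31.2) and 39.9 CPM (35.8 to 44.4), a 1.43-fold excess in MDA PCa 2b (1.22 to 1.68). BCL2L11, whose product BIM binds all the guardians and can activate BAX and BAK directly, was lower in MDA PCa 2b, with 213 counts in LNCaP against 90 in MDA PCa 2b. Its level was 19.7 CPM (17.1 to 22.5) in LNCaP and 10.6 CPM (8.50 to 13.0) in MDA PCa 2b, a 1.86-fold excess in LNCaP (1.45 to 2.41). BIM is made in several splice forms, and the annotation lists 17 protein-coding transcripts of BCL2L11, which a single amplicon cannot tell apart. The same holds for the long and short forms encoded by BCL2L1 and by MCL1, which have opposite effects on cell death.

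By reads, BBC3 and BID were near the bottom of the measured range. BBC3, the gene of PUMA, had 28 counts in LNCaP against 20 in MDA PCa 2b, a ratio of MDA PCa 2b over LNCaP of 0.910 (0.486 to 1.67). BID, whose product is cut by caspase-8 and links death receptors to mitochondria, had 18 and 15 counts, a ratio of 1.06 (0.498 to 2.23). Together with BCL2 these 3 members had fewer than 30 counts in each library, and a level 2-fold higher in LNCaP lies inside the BBC3 and BID intervals. At this depth, the data do not show whether these genes differ.

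**Figure D2:**
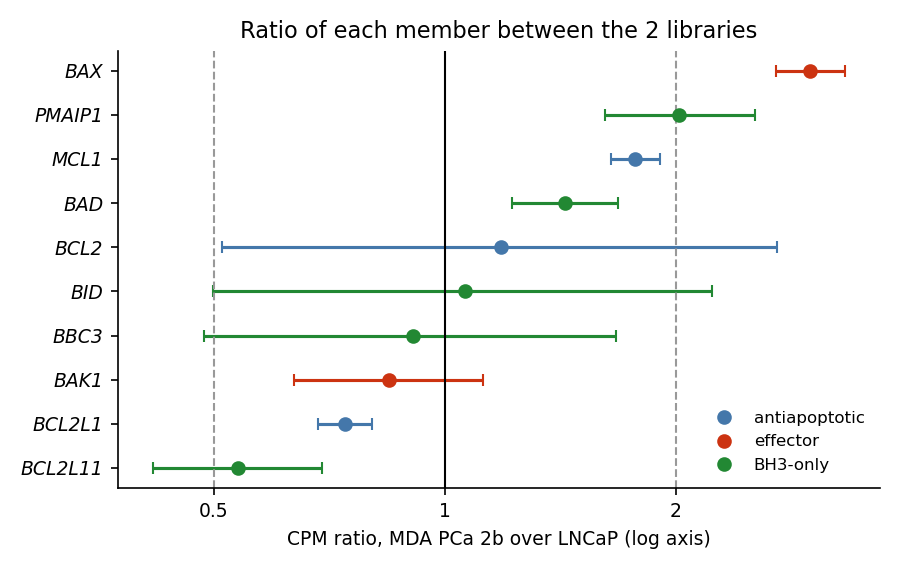
Ratio of the CPM in MDA PCa 2b to that in LNCaP for each member, on a log axis, with exact 95% counting intervals; colours give the role, the solid line is no difference and the dashed lines are 2-fold. Only the BAX interval, 2.70 to 3.33, lies wholly beyond a dashed line, and BCL2L11 is lowest at 0.538.

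Of the 10 members, all with at least 10 counts in a library, 1 passed the 2-fold rule (its whole interval beyond 2-fold) toward MDA PCa 2b and 0 passed it toward LNCaP. Among all 14418 measured genes 10.9% passed toward MDA PCa 2b and 13.2% toward LNCaP, so the family's count in MDA PCa 2b is near the background. The intervals of 4 members lay above no difference (BAX, PMAIP1, MCL1 and BAD), where 38.2% of measured genes did. Those of 2 members lay below it (BCL2L11 and BCL2L1), where 39.9% of measured genes did. The median log2 ratio of the members was 0.17, beside -0.0018 over all measured genes. With a threshold of 1.5-fold, BAX, PMAIP1 and MCL1, 3 members, passed toward MDA PCa 2b and 0 toward LNCaP, against 19.3% and 22.5% of measured genes. The BAX call did not survive an assumed spread of 20% between cultures, which widened its interval to 1.71 to 5.24. With that spread the intervals of BCL2L1 (0.426 to 1.29) and BAD (0.810 to 2.54) included no difference. Those of MCL1 (1.02 to 3.08), PMAIP1 (1.12 to 3.65) and BCL2L11 (0.295 to 0.982) still excluded it. With an assumed spread of 40%, only the BAX interval (1.03 to 8.76) excluded no difference.

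**Figure D3:**
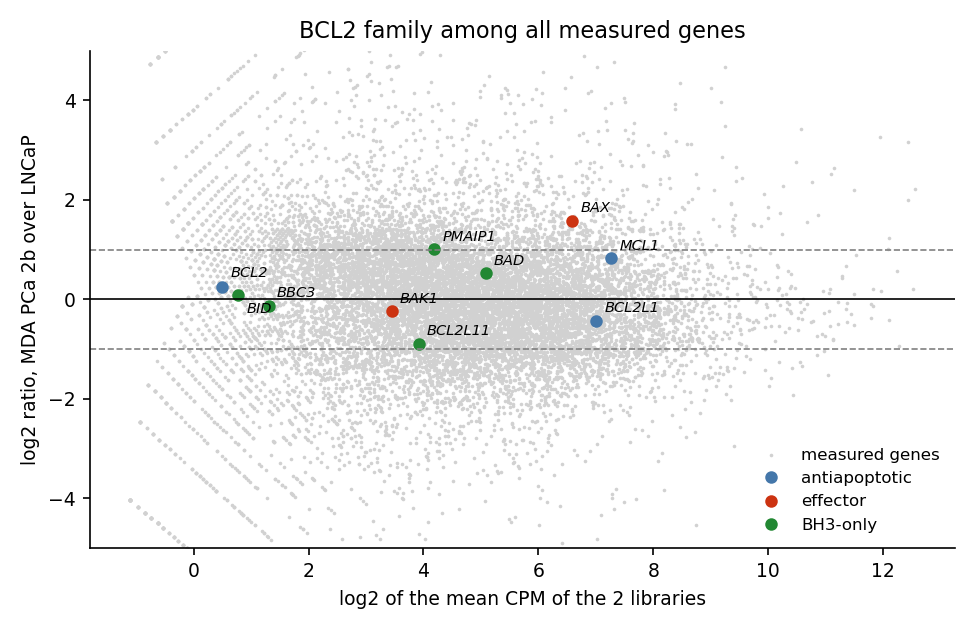
Log2 ratio of MDA PCa 2b over LNCaP against the log2 mean CPM of both libraries for all measured genes (grey) and the members (coloured by role), with dashed lines at 2-fold; the vertical axis stops at a log2 ratio of 5 in either direction, and 440 genes lie beyond it. The members lie between -0.89 for BCL2L11 and 1.58 for BAX, inside the cloud of all genes.

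The order of the levels was not the same in both libraries. In LNCaP it ran from BCL2L1 through MCL1, BAX, BAD, BCL2L11, PMAIP1, BAK1, BBC3 and BID to BCL2. In MDA PCa 2b it ran from MCL1 through BAX, BCL2L1, BAD, PMAIP1, BCL2L11, BAK1, BBC3 and BID to BCL2. Neighbours with overlapping intervals were PMAIP1 and BAK1 in LNCaP and BCL2L11 and BAK1 in MDA PCa 2b. In both libraries BBC3 overlapped with BID, and BID with BCL2. Amplicons can be copied with unequal efficiency, so this is an order of reads and may not be an order of transcripts.

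The make-up of the family's reads was compared between the libraries, which needs no scaling. The members together had 4168 counts in LNCaP against 4616 in MDA PCa 2b. BCL2L1 took 38.5% of them in LNCaP (37.0 to 39.98) against 20.2% in MDA PCa 2b (19.1 to 21.4). MCL1 took 28.9% (27.6 to 30.3) and 36.4% (35.0 to 37.8). BAX took 12.6% (11.6 to 13.6) and 26.7% (25.4 to 28), the widest increase of any member. MCL1 and BAX thus weighed more in MDA PCa 2b, and BCL2L1 less. By role, the antiapoptotic genes took 67.8% of the family's reads in LNCaP (66.3 to 69.2) against 56.9% in MDA PCa 2b (55.4 to 58.3). The effectors took 15.6% (14.6 to 16.8) and 28.6% (27.3 to 29.9), an increase that rests on BAX, since the share of BAK1 was 3.07% in LNCaP against 1.84% in MDA PCa 2b. The BH3-only genes took 16.6% (15.5 to 17.8) and 14.6% (13.6 to 15.6). A smaller share did not mean a lower level. With LNCaP first, antiapoptotic genes summed to 261 and 308 CPM, and BH3-only genes to 63.8 and 79.1 CPM. Dividing the MDA PCa 2b sum by the LNCaP sum gave 1.18 (1.12 to 1.25) for antiapoptotic genes. The same division gave 1.24 (1.11 to 1.38) for BH3-only genes and 2.57 (2.34 to 2.83) for effectors. Over all 10 members it gave 1.41 (1.35 to 1.47), with counting error only.

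**Figure D4:**
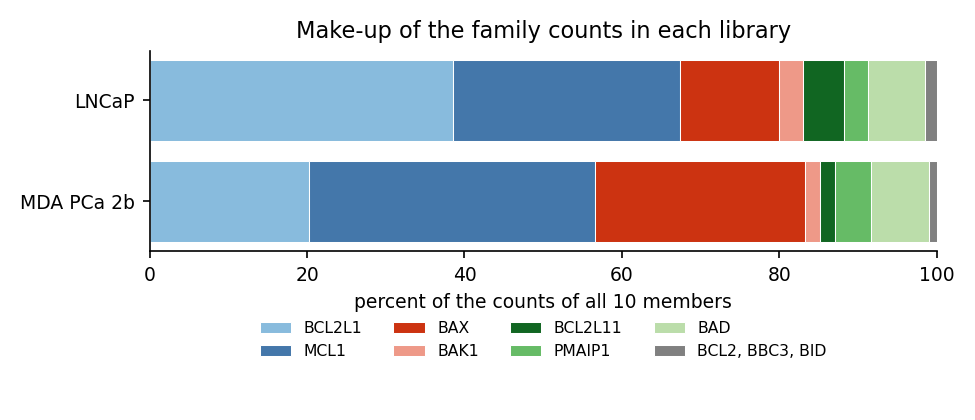
Percent of the summed counts of the 10 members taken by each, 1 bar per library, with BCL2, BBC3 and BID drawn together. The BAX segment is 12.6% in LNCaP against 26.7% in MDA PCa 2b, and the BCL2L1 segment is 38.5% and 20.2%.

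The quotient of 2 members within a library cancels the library size and any amplicon efficiency that is the same in both libraries. It was computed for 11 pairs of binding partners or of members of 1 role, and 4 pairs differed by more than 2-fold over their whole interval. No share was computed for other gene pairs, so these 4 have no background beside them. Of single measured genes, 24.1% passed the 2-fold rule in either direction. The assumed spread between cultures was not applied to quotients, so their intervals hold counting error only. BAX over BCL2L1 was 0.327 in LNCaP against 1.32 in MDA PCa 2b, a 4.04-fold excess in MDA PCa 2b (3.54 to 4.61). BAK1 over BAX was 0.244 and 0.0689, a 3.54-fold excess in LNCaP (2.62 to 4.81). BCL2L11 over MCL1 was 0.177 and 0.0536, a 3.29-fold excess in LNCaP (2.53 to 4.31). BCL2L1 over MCL1 was 1.33 and 0.557, a 2.39-fold excess in LNCaP (2.14 to 2.67). BAX or MCL1, both higher in MDA PCa 2b, is part of each of these 4 pairs.

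For NOXA and its partner MCL-1 no difference in proportion was detectable. PMAIP1 over MCL1 was 0.109 in LNCaP against 0.124 in MDA PCa 2b, a ratio of 1.14 whose interval of 0.901 to 1.45 includes no difference. BAD over BCL2L1 was 0.188 and 0.364, a 1.93-fold excess in MDA PCa 2b (1.62 to 2.31). BCL2L11 over BCL2L1 showed a 1.38-fold excess in LNCaP (1.06 to 1.81). BAK1 over MCL1 showed a 2.10-fold excess in LNCaP (1.56 to 2.82). The 3 pairs with BBC3, BID or BCL2 had wide intervals, of which that of BCL2 over MCL1, 0.288 to 1.54 for MDA PCa 2b over LNCaP, includes no difference. Summed by role, effectors over antiapoptotic genes showed a 2.17-fold excess in MDA PCa 2b (1.95 to 2.43), and BH3-only over antiapoptotic genes had a ratio of 1.05 (0.927 to 1.18).

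**Figure D5:**
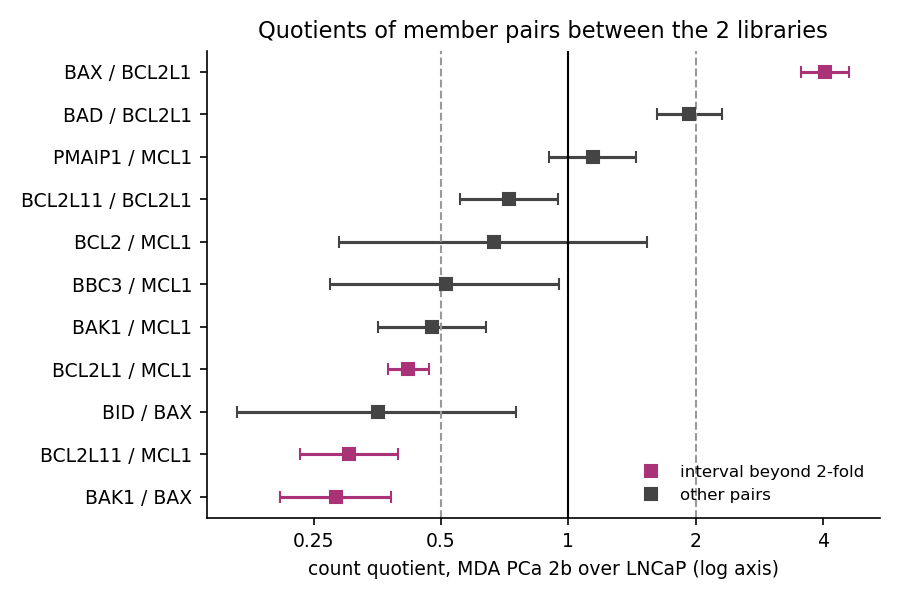
Quotient of the counts of 2 members in MDA PCa 2b divided by the same quotient in LNCaP, on a log axis, with exact conditional 95% intervals; dashed lines are 2-fold. BAX over BCL2L1 lies at 4.04, and BAK1 over BAX, BCL2L11 over MCL1 and BCL2L1 over MCL1 lie below 0.5.

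The promoter of BAX is shown because BAX is the member that passed the 2-fold rule. The 300 bases are from RefSeq (GRCh38.p14, chr19:48954625-48954924, plus strand), 250 before and 50 after the annotated start, with each CACGTG, the E-box core read by MYC, MAX and USF proteins, in capitals.
BAX promoter: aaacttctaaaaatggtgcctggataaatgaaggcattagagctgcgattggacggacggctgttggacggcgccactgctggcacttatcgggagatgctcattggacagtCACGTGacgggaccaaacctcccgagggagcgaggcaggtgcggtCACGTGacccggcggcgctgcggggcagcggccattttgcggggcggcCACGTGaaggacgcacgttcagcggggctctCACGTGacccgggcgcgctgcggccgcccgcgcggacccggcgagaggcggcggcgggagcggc
CACGTG reads the same on both strands, and the window holds it 4 times. The search for it was chosen after the sequence was seen. Of the 35116 promoter windows in the table, 7.26% hold it at least 1 time and 5 windows hold it 4 times or more. Promoters were found for 9 members, and BBC3 has 1 CACGTG, BID has 1 in some of its windows, and the other 6 have none. A match describes letters and was not set against binding or expression data.

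Beyond the 10 members, 48 further genes of the pathway were read from 4 lists, with 10.9% and 13.2% of measured genes as the background for calls in MDA PCa 2b and LNCaP. Of the 7 measured among 11 other BCL2 family genes, 0 passed the 2-fold interval rule in either direction, with a median log2 ratio of 0.31. Named after their values were seen, BCL2L2, the gene of the antiapoptotic protein BCL-W, had 31 counts in LNCaP against 72 in MDA PCa 2b (a 2.96-fold excess in MDA PCa 2b, 1.92 to 4.66). BMF, a BH3-only gene, had 77 and 21 counts (a 2.88-fold excess in LNCaP, 1.76 to 4.91). BOK had 14 and 37 counts (a 3.37-fold excess in MDA PCa 2b, 1.78 to 6.74). That ratio is wider than the BAX ratio but rests on few counts. Of the 7 measured genes, 4 had a log2 ratio above 0 and 3 below 0. The antiapoptotic genes BCL2A1 and BCL2L10 had 0 counts in both libraries.

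The apoptosome and caspase genes differed in both directions. Among 8 measured genes of the apoptosome and caspase list, 1 passed the 2-fold rule toward MDA PCa 2b and 2 toward LNCaP (median log2 ratio 0.07). CASP9, the initiator caspase of the apoptosome, had 144 counts in LNCaP against 294 in MDA PCa 2b (a 2.60-fold excess in MDA PCa 2b, 2.12 to 3.20). CASP6, an effector caspase gene, had 328 counts in LNCaP against 98 in MDA PCa 2b (a 2.63-fold excess in LNCaP, 2.09 to 3.33).

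Of 8 measured caspase inhibitors and mitochondrial release factors, 0 passed toward MDA PCa 2b and 3 toward LNCaP (median log2 ratio -0.32). BIRC5, which encodes survivin, a protein made mainly in dividing cells, had 877 counts in LNCaP against 79 in MDA PCa 2b (an 8.72-fold excess in LNCaP, 6.92 to 11.1). ENDOG, a mitochondrial nuclease, was 4.01-fold (3.38 to 4.78) and AIFM1, the apoptosis-inducing factor, 3.14-fold (2.81 to 3.51) higher in LNCaP.

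All 18 partners and regulators were measured, with 1 passing toward MDA PCa 2b, 2 toward LNCaP and a median log2 ratio of -0.70. FBXW7, a ubiquitin ligase subunit that targets MCL-1 for destruction, had 413 counts in LNCaP against 766 in MDA PCa 2b (a 2.36-fold excess in MDA PCa 2b, 2.09 to 2.67). TP73, a transcription factor gene, had 176 counts in LNCaP against 12 in MDA PCa 2b (an 11.5-fold excess in LNCaP, 6.43 to 22.7). Over the 4 lists 2 genes passed toward MDA PCa 2b and 7 toward LNCaP, a split that became 5 and 6 with upper quartile scaling.

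For several members the reads could be shared with other genes. The annotation places transcripts on the opposite strand of BCL2, BCL2L1, BAK1, BCL2L11, BBC3 and BAD. Whether the counting used strand is not given in the sources used here. It also places overlapping transcripts on the same strand as BCL2, MCL1, BBC3 and BID, which strand could not tell apart. BAK1 also has 2 processed pseudogenes elsewhere in the genome. Of these other genes, GGNBP1 at BAK1 and GPR137 at BAD have amplicons of their own, and both had 0 counts in both libraries.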

How the data were processed

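The authors deposited 1 table of whole-number read counts per amplicon, with 1 column for each library, per the file headers. Per the labels' protocols, a column kit gave the RNA and the AmpliSeq Transcriptome kit the libraries. The submitters' processing notes name hg19 and DESeq with no role; aligner, counter and filters are not stated there. The 10 spike-in rows, all at 0 counts, were left out.

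Library sizes were corrected with TMM factors (edgeR 4.0.16, R 4.3.3) of 1.006 for LNCaP and 0.994 for MDA PCa 2b. A gene was measured with at least 10 counts in a library. Ratios carry exact 95% intervals (Clopper-Pearson) given the sum of both counts (scipy 1.17.1), and a gene was called when the near end of the interval lay beyond 2-fold. Log2 ratios used 0.5 added counts. The limit for a gene at 0 is 3 counts, which is 0.277 CPM for LNCaP and 0.352 for MDA PCa 2b. Quotients have an exact conditional interval of the odds ratio. The ratio intervals and the call rule were tested on simulated counts that held counting error only, scaled by library totals. That test does not cover spread between cultures, the TMM factors, the shares, the quotients or the sequence searches. Promoters are from RefSeq (GRCh38.p14) and coding sequences from GENCODE release 29; the table gives no coordinates.

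The members and lists were chosen with earlier results of these data known. All 10 members are named, and from each other list up to 4 called genes with at least 50 counts in a library and the largest ratios; some genes that this rule would name are not reported here. BCL2L2, BMF, BOK, BCL2A1 and BCL2L10, outside this rule, were named after their values were seen. Alternatives were other scalings (DESeq2 1.42.0 size factors among them), filters, thresholds and an assumed spread between cultures. Intervals with an assumed spread used a normal approximation on the log ratio and are not exact.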

Additional observations from a re-analysis of the deposited data

How the results depend on the processing

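No paired analysis was possible because each line has 1 library. Under the 4 other scalings BAX stayed the 1 member called, with a ratio from 2.91 to 3.19, and no member changed direction. Those scalings moved all log2 ratios by -0.041 to 0.089. The members higher in MDA PCa 2b numbered 3 at a threshold of 1.5-fold, with MCL1 and PMAIP1 added, and 0 at 3-fold or with an assumed spread of 20% or 40% between libraries; 0 were higher in LNCaP under any of these. Of the quotients, 1 passed a threshold of 3-fold, chosen after seeing the data. In the 4 other lists, upper quartile scaling gave 5 genes higher in MDA PCa 2b, adding BAG1, BCL2L2 and BTRC, and 6 higher in LNCaP, losing CASP6. At 1.5-fold these counts were 10 and 15, where 19.3% and 22.5% of all measured genes passed. At 3-fold they were 0 and 3. For members and lists alike, no share over all measured genes was computed at 3-fold or with an assumed spread. The members' median log2 ratio ranged from 0.13 to 0.26 over the scalings and was 0.52 without the 3 members under 50 counts in both libraries. Depth limits BCL2, BBC3 and BID.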
